A study of Mus musculus with 12 samples.

Results

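Foxo1, Foxo3, Klf2, S1pr1, Tcf7, Lef1, Satb1 and Cd44 are 8 genes tied to the naive state of T cells and to its loss, and they were followed here by symbol through 2 gene tables from cultured mouse CD4+ T cells. All 8 were listed, among 11077 genes in the table of Th17 against Th0 cells and among 11056 in the table of iTreg against Th0 cells, and all 8 passed the filter on low values, with 10269 and 10208 genes tested. The starting cells were naive CD4+ T cells from spleens of C57BL/6 mice aged 8 to 10 weeks. All cultures were stimulated for 3 days with plate-bound anti-CD3 and with anti-CD28, at 1 µg/ml each. Th0 cells received this stimulus without polarizing cytokines. For Th17 cells IL6 was added at 30 ng/ml and TGFβ1 at 5 ng/ml, with antibodies against IL4 and IFNγ at 10 µg/ml each. For iTreg cells IL2 was added at 10 ng/ml and TGFβ1, by the sample labels, at 10 ng/ml, for which the methods of the study name a higher dose. Each group had 4 libraries from independent cultures, 12 in all, of bulk RNA, in which a change in the number of cells of a kind and a change in RNA per cell cannot be told apart.

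FOXO1 and FOXO3 are forkhead transcription factors that AKT phosphorylates and keeps out of the nucleus when a T cell is stimulated through its receptor and CD28. In resting T cells FOXO1 maintains transcription of Klf2, which encodes a zinc-finger factor, and KLF2 in turn maintains S1pr1, the receptor for sphingosine-1-phosphate with which T cells leave lymphoid organs. TCF1, the product of Tcf7, and LEF1 are related HMG-box factors of naive and memory T cells, SATB1 folds chromatin into loops in thymocytes and T cells, and CD44 is the hyaluronan receptor that T cells display more of once they have been activated.

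Values are FPKM, read fragments per transcript length and library size, which had been scaled separately in the 2 tables, so that a Th0 library has slightly different values in each. Libraries are called by their column headings, which end in 1 for Th0, 5 for Th17 and 4 for iTreg. Each group has 1 heading beginning with each of M43, M42, M29 and M22, and libraries with the same beginning deviated together from their group means across genes. An adjusted p is from limma on log2(FPKM + 1) without this pairing, adjusted over all genes tested, and an adjusted p with the block is from the same test with the heading beginning as a block. A gene is said to have risen or fallen where the adjusted p without the block was under 0.05. Such calls leave out the pairing, so that differences between cultures enter their error. Calls with the block are therefore also given for the 8 genes and for the lists. A gene without such a call is not thereby shown to be unchanged. A log2 difference is polarized minus Th0 on the log2(FPKM + 1) scale, with its standard error (SE).

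Before the genes are described, 1 library has to be singled out. Library M43_5, labelled Th17, had 42.5 FPKM of Foxp3, the lineage factor of regulatory T cells, where the other Th17 libraries had 0.499, 0.502 and 4.50 and the iTreg libraries 62.0 to 91.7. It also had the Th17 cytokine gene Il17f at 366 FPKM, inside the range of the other Th17 libraries (281 to 788 FPKM). The iTreg libraries held Il17f at 26.9 to 99.2 FPKM, against at most 0.181 FPKM in Th0 libraries. For Th17 cells, the results of the 8 genes and the counts over gene lists are therefore also given without M43_5. Of the list genes named as risen or fallen in Th17 cells, only Bcl9 and Il2ra lost their calls without it. The 10 T cell genes checked were listed in every library, with Cd3e between 121 and 312 FPKM. Of these 10, 1 rose and 1 fell in Th17 cells, or 1 and 0 without M43_5. In iTreg cells 2 rose and 0 fell. This was 20% in each, where 19.3% and 16.6% of all genes tested were called. With the block, 1 rose and 3 fell in Th17 and 4 rose and 5 fell in iTreg cells. Of all genes, 37.8% and 40.9% were called with it. Of 8 B cell markers only Cd79a was listed, at up to 3.84 FPKM, of 7 CD8 and NK markers only Cd8b1, at up to 6.60 FPKM, and of 7 erythroid markers none. Of 12 myeloid markers only Cd68 and, in the Th17 table, Itgam were listed, with Cd68 at 5.46 to 15.9 FPKM in Th17 against 3.22 to 4.90 FPKM in Th0 libraries, a difference with an adjusted p of 0.055. With the block Cd68 was called higher in Th17 cells. The part of such cells in the results was not tested.

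The promoters of Klf2 and Tcf7 are shown because the levels of these genes went up and down together between cultures, as described later. RefSeq windows of 300 bases, 250 before and 50 after a transcription start on GRCm38.p6, were found for 7 of the 8 genes, 15 windows in all, with S1pr1 the gene that was not matched. Capitals mark the motif matches, and both strands were searched. Klf2 lies on the plus strand, and its 250 bases before the RefSeq start are at chr8:72318812-72319061. They run past the start of Klf2 in GENCODE, at 72319033. Tcf7 lies on the minus strand, and the window shown starts inside the gene, at chr11:52282596-52282845.
Klf2: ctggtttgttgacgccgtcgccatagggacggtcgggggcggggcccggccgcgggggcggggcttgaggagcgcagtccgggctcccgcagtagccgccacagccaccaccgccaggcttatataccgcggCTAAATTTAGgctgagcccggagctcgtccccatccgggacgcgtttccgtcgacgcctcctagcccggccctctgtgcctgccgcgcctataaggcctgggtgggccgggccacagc
Tcf7: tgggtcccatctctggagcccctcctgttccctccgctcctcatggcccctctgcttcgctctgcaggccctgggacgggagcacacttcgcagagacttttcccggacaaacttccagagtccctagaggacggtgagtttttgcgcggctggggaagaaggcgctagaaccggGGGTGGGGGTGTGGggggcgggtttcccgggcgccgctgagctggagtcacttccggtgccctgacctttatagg

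In the Klf2 window the capitals are CTAAATTTAG, a form of the MEF2 motif (searched as CTANNNNTAG), 118 bases before the start. This motif was added to the search after the sequence had been seen, and 3.69% of all 32851 RefSeq windows hold a match to it. In the Tcf7 window the capitals hold 2 overlapping matches on the other strand, GGGTGGGG, the reverse complement of CCCCACCC, 75 bases before the start, and GGGTGTGG, that of CCACACCC, 69 bases before it. CCACACCC and CCCCACCC, which KLF factors bind, were in 5 windows of these genes (3 of Lef1 and 1 each of Tcf7 and Satb1) and in 13% of all windows. A pair of the Lef1 windows overlap and hold the same match. The FOXO motif GTAAACA was in 1 window of these genes and in 3.65% of all windows. It stands 2 bases into the transcript of the same Tcf7 window, in the stretch chr11:52282576-52282605 on the minus strand.
Tcf7, around the start: cctttataggaGTAAACAgacccccgccat

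CTTTGAA and CTTTGAT, which TCF1 and LEF1 bind, were in 0 of the 15 windows and in 8.65% of all windows. These are matches of letters, and binding was not measured.

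In Th17 cells, 4 of the 8 genes passed the test, where 19.3% of all genes tested did. Foxo1, S1pr1 and Satb1 rose and Lef1 fell, and 10.6% of all genes rose and 8.69% fell. The median log2 difference of the 8 genes was 0.95, against -0.00071 over all genes tested. In iTreg cells, 3 of the 8 passed, where 16.6% of all genes did. Foxo1 rose and Lef1 and Satb1 fell, beside 8.36% and 8.21% of all genes, and the median was 0.02 against 0.01 over all genes. With the block, all 8 genes passed in Th17 cells and 6 in iTreg cells, where 37.8% and 40.9% of all genes did. Of the 8, 5 were then higher and 3 lower in Th17 cells, beside 19.2% and 18.6% of all genes, and 3 higher and 3 lower in iTreg cells, beside 20.9% and 20% of all genes. Both comparisons used the same Th0 libraries and are therefore not independent of each other.

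**Figure D1:**
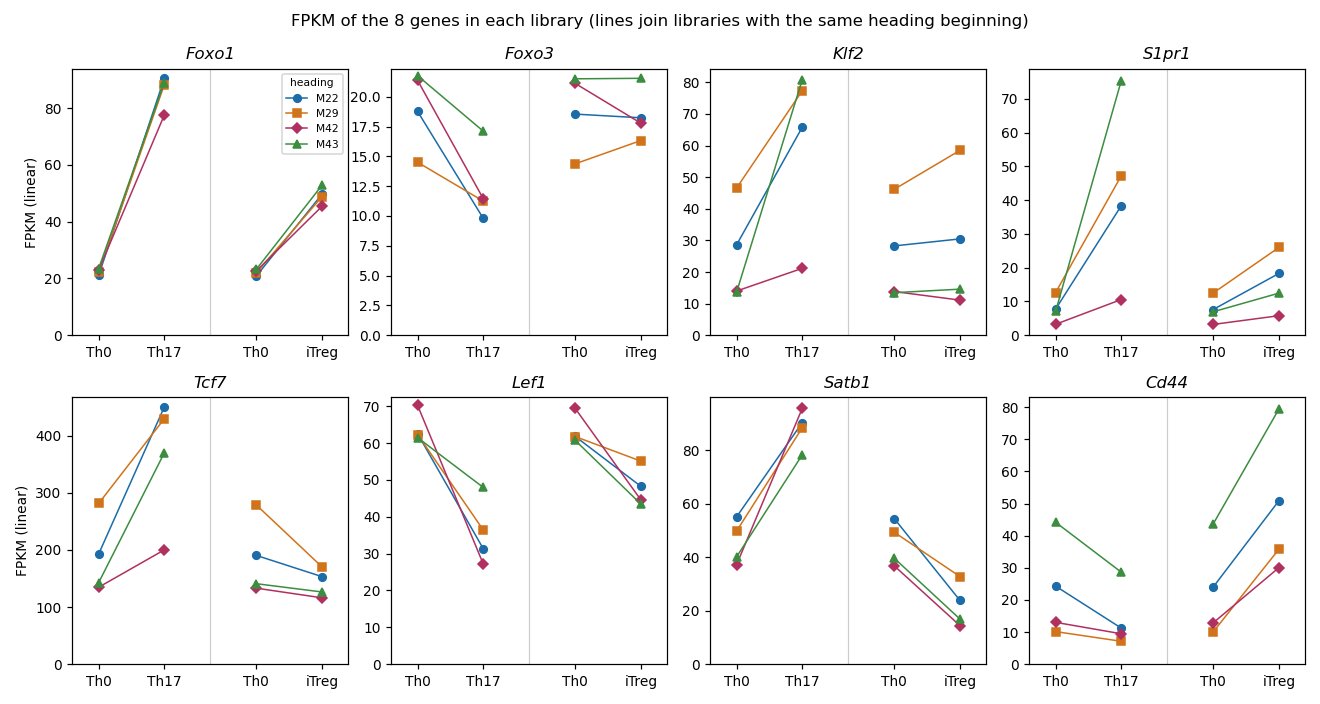
FPKM (linear axis from 0) of each of the 8 genes in the 4 libraries of a group, in the Th17 table (left of each panel) and in the iTreg table (right), with lines joining libraries whose headings begin alike. Foxo1 rose in parallel lines to 77.6 to 90.5 FPKM in Th17 and 45.4 to 52.8 FPKM in iTreg libraries, while Klf2, S1pr1, Tcf7 and Cd44 spread widely within each group.

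Foxo1 had the lowest ratio of highest to lowest library of the 8 genes within each group and the smallest adjusted p in both comparisons. It was at 21.1, 22.2, 22.9 and 23.5 FPKM in the Th0 libraries M22_1, M29_1, M42_1 and M43_1 and at 90.5, 88.3, 77.6 and 89.0 FPKM in the Th17 libraries M22_5, M29_5, M42_5 and M43_5. Each Th17 library was at least 3.39 times its Th0 counterpart. Its log2 difference was 1.90 (SE 0.09, n = 4 per group), with a limma adjusted p of 6.07e-06, and 1.88 with an adjusted p of 4.66e-05 without M43_5. In the iTreg table Foxo1 was at 49.7, 48.8, 45.4 and 52.8 FPKM against 20.8 to 23.2 FPKM in Th0. Here the log2 difference was 1.11 (SE 0.09, limma adjusted p 9.43e-05). Neither polarized group overlapped with Th0, as held for 23.8% of all genes tested in the Th17 and 22.8% in the iTreg table, and both calls stood with each library left out in turn. Foxo1 lies on chromosome 3 from 52268336 to 52353221 on the plus strand (GRCm38), and exons of Gm20402 cover 7.78% of its exonic bases. Reads had been counted without the strand, in the union mode of HTSeq-count. As the annotation used is not given, how reads there were assigned is not known.

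Foxo3 did not follow Foxo1. It was at 18.8, 14.5, 21.4 and 21.8 FPKM in Th0 and at 9.80, 11.2, 11.4 and 17.1 FPKM in Th17 libraries, in the same order of headings. Each Th17 library was below its counterpart, but M43_5 was above the Th0 library M29_1, so that the groups overlapped. This gave a log2 difference of -0.60 (SE 0.19), with a limma adjusted p of 0.057, of 0.011 with the block, of 0.017 without M43_5 and of 0.030 without M29_1. In iTreg libraries Foxo3 was at 18.2, 16.3, 17.8 and 21.5 FPKM, inside the Th0 range of 14.4 to 21.5 FPKM. The log2 difference of -0.02 had a 95% interval of -0.35 to 0.31, and 2 of the 4 iTreg libraries were above their counterparts. Foxo3 is on chromosome 10, minus strand, from 42181841 to 42276755, with no exonic base shared with another gene.

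The ratio of Foxo1 to Foxo3 within a library does not depend on how the library was scaled. It was 1.12, 1.53, 1.07 and 1.08 in Th0 and 9.23, 7.85, 6.78 and 5.20 in Th17 libraries. In iTreg libraries it was 2.72, 2.99, 2.55 and 2.45. The lowest ratio of a Th17 library was above the highest of an iTreg library, and that of the lowest iTreg library was above all in Th0.

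**Figure D2:**
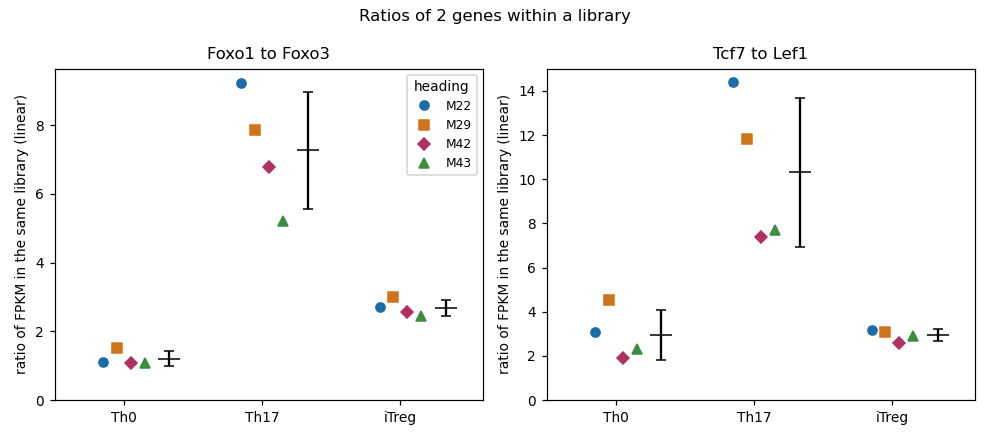
Ratio of Foxo1 to Foxo3 and of Tcf7 to Lef1 FPKM within each library (linear axis from 0), with the mean and SD of the 4 libraries of a group in black. The Foxo1 to Foxo3 ratio has 3 separate ranges, 1.07 to 1.53 in Th0, 2.45 to 2.99 in iTreg and 5.20 to 9.23 in Th17, while Tcf7 to Lef1 is apart from Th0 in Th17 libraries (7.37 to 14.4).

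Of the enzymes and adaptors that control FOXO proteins, 31 genes were tested, and 2 rose and 1 fell in Th17 cells while 4 rose and 3 fell in iTreg cells. This was 9.68% and 22.6% of the 31, where 19.3% and 16.6% of all genes tested were called. These shares of all genes also apply to the lists below, where percentages are of the genes tested. Without M43_5 the counts in Th17 cells were again 2 and 1. In all, 1 gene was called without M22_5, M29_5, M42_1 or M43_1, 6 without M29_1 and 5 without M42_5, and 5 to 8 in iTreg cells with single libraries left out. With the block, 6 rose and 4 fell in Th17 and 8 rose and 6 fell in iTreg cells. Sgk1, a kinase that phosphorylates FOXO proteins at AKT sites, rose in both. It was at 0.390 to 0.858 FPKM in Th0, at 6.82 to 43.4 FPKM in Th17 with M43_5 the highest, and at 9.45 to 14.5 FPKM in iTreg libraries. Its log2 differences were 3.21 (SE 0.47, limma adjusted p 0.0018) and 2.90 (SE 0.15, limma adjusted p 1.78e-05). Pik3r2, a regulatory subunit of PI3 kinase, rose in Th17 cells by 0.49 on the log2 scale, and Ywhaq, a 14-3-3 protein that holds phosphorylated FOXO in the cytoplasm, fell by 0.58. In iTreg cells Pik3r1 rose from 8.70 to 10.2 FPKM in Th0 to 24.2 to 30.5 FPKM. The AKT phosphatases Phlpp1 and Phlpp2 fell there by 0.52 and 0.53 on the log2 scale.

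Of 16 genes taken as FOXO targets, 6 rose and 1 fell in Th17 cells (43.75%), with and without M43_5, and the median log2 difference was 0.44. Il7r, the receptor of the survival cytokine IL7, rose from 3.25 to 6.78 FPKM in Th0 to 17.6 to 41.97 FPKM in Th17 libraries (log2 difference 2.47, SE 0.29, limma adjusted p 0.00053). Bcl6, a transcriptional repressor, was at 40.4, 43.4, 25.7 and 14.4 FPKM in Th17 libraries, with M43_5 the lowest, against 5.85 to 10.1 FPKM in Th0. Bcl2l11, which encodes the proapoptotic BIM, fell by 1.07 on the log2 scale. In iTreg cells 2 of the 16 genes rose and 2 fell (25%), with a median of -0.06. Fbxo32, a ubiquitin ligase, rose by 1.01 and Sod2, the mitochondrial superoxide dismutase, by 0.37, while Bcl2l11 fell by 1.17 and Bcl6 by 0.61 on the log2 scale. Fbxo32 had also risen in Th17 cells, by 0.86. Bcl6 thus lay above all Th0 libraries in Th17 and below all Th0 libraries in iTreg cells. With single libraries left out, the number of these genes called ranged from 6 to 8 in Th17 and from 2 to 5 in iTreg cells, where it was 2 without M22_4, M29_1, M42_4, M43_1 or M43_4. With the block, 8 rose and 2 fell in Th17 and 2 rose and 4 fell in iTreg cells.

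Klf2 differed widely between cultures of the same group. It was at 28.6, 46.6, 13.99 and 13.6 FPKM in Th0 libraries and at 65.8, 77.3, 21.2 and 80.9 FPKM in Th17 libraries. Each Th17 library was above its counterpart, by 1.51 to 5.94 times, yet the lowest Th17 library, M42_5, was under 2 of the Th0 libraries. The log2 difference of 1.24 (SE 0.51) had a limma adjusted p of 0.13, of 0.020 with the block and of 0.021 without M42_5, while without M43_5 it was 1.05 with a limma adjusted p of 0.26. In iTreg libraries Klf2 was at 30.5, 58.5, 11.1 and 14.6 FPKM, against 28.3, 46.2, 13.8 and 13.5 FPKM in Th0. These values followed the Th0 library of the same heading closely. Its log2 difference was 0.06, with a 95% interval of -1.20 to 1.33 without and of -0.19 to 0.32 with the block, and it lay between -0.36 and 0.40 with single libraries left out. Klf2 is on chromosome 8, plus strand, from 72319033 to 72321656.

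Of the other KLF genes, 9 were tested, and 2 rose and 0 fell in each comparison (22.2%), or 2 and 1 in Th17 cells without M43_5. Klf10, a gene induced by TGFβ in many cells, was at 2.53 to 4.44 FPKM in Th0 and at 21.4 to 25.6 FPKM in Th17 libraries, with a log2 difference of 2.45 (SE 0.15, limma adjusted p 1.61e-05). In iTreg libraries it was at 16.9 to 19.9 FPKM (log2 difference 2.15, SE 0.14, limma adjusted p 3.86e-05). Klf13 rose in Th17 cells by 0.60 and Klf9 in iTreg cells by 1.00 on the log2 scale. The number of KLF genes called with single libraries left out was 1 to 3 in Th17 cells, with 1 without M22_5, M29_1, M42_1 or M43_1, and 2 in iTreg cells. With the block, 3 rose and 2 fell in Th17 and 3 rose and 0 fell in iTreg cells.

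S1pr1 rose in Th17 cells. It was at 7.71, 12.6, 3.25 and 7.04 FPKM in Th0 and at 38.4, 47.2, 10.6 and 75.4 FPKM in Th17 libraries, 3.26 to 10.7 times the Th0 library of the same heading. The groups overlapped, because M42_5 was under M29_1. S1pr1 had a log2 difference of 2.17 (SE 0.56), with a limma adjusted p of 0.028 and of 0.0015 with the block. This call was lost without M22_1, M22_5, M29_5, M42_1, M43_1 or M43_5, with limma adjusted p of 0.061, 0.072, 0.073, 0.071, 0.067 and 0.065, and without M43_5 the log2 difference was 1.81. Without M42_5 it was 2.72, with a limma adjusted p of 0.0023. In iTreg libraries S1pr1 was at 18.3, 26.0, 5.79 and 12.5 FPKM against 7.62, 12.5, 3.21 and 6.95 FPKM in Th0. Every iTreg library was above its counterpart, by 1.79 to 2.4 times. The log2 difference of 0.90 (SE 0.46) had a limma adjusted p of 0.23 without and 6.29e-04 with the block, and the unpaired SE was 4.86 times the blocked SE. Without M42_1 the log2 difference was 0.60. S1pr1 lies on chromosome 3, minus strand, from 115710433 to 115715072.

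Among other genes of sphingosine-1-phosphate signalling and metabolism, 10 were tested in Th17 cells, of which 0 rose and 1 fell (10%) with or without M43_5, and 11 in iTreg cells, of which 2 rose and 2 fell (36.4%). Cd69, whose product binds S1PR1 and takes it off the surface, fell in both. It was at 83.0, 81.4, 58.3 and 84.0 FPKM in Th0 and at 38.0, 49.98, 29.01 and 43.1 FPKM in Th17 libraries (log2 difference -0.93, SE 0.19, limma adjusted p 0.0088). In iTreg libraries it was at 33.8 to 57.3 FPKM (log2 difference -0.77, SE 0.18, limma adjusted p 0.021). Sphk1, a kinase that makes sphingosine-1-phosphate, was at 8.11 to 24.2 FPKM in iTreg libraries and listed at 0, 0, 0.791 and 0.783 in Th0 libraries. In the Th17 table Sphk1 was at most 0.8004 FPKM and was not tested. Sgpp1, a phosphatase of sphingosine-1-phosphate, rose in iTreg cells by 0.46 on the log2 scale. With single libraries left out, 1 to 3 of these genes were called in either comparison, 3 in Th17 cells without M42_5, 1 in iTreg cells without M22_1, M22_4 or M43_1, and 2 there without M29_1 or M43_4. With the block, 3 rose and 1 fell in Th17 and 5 rose and 3 fell in iTreg cells.

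**Figure D3:**
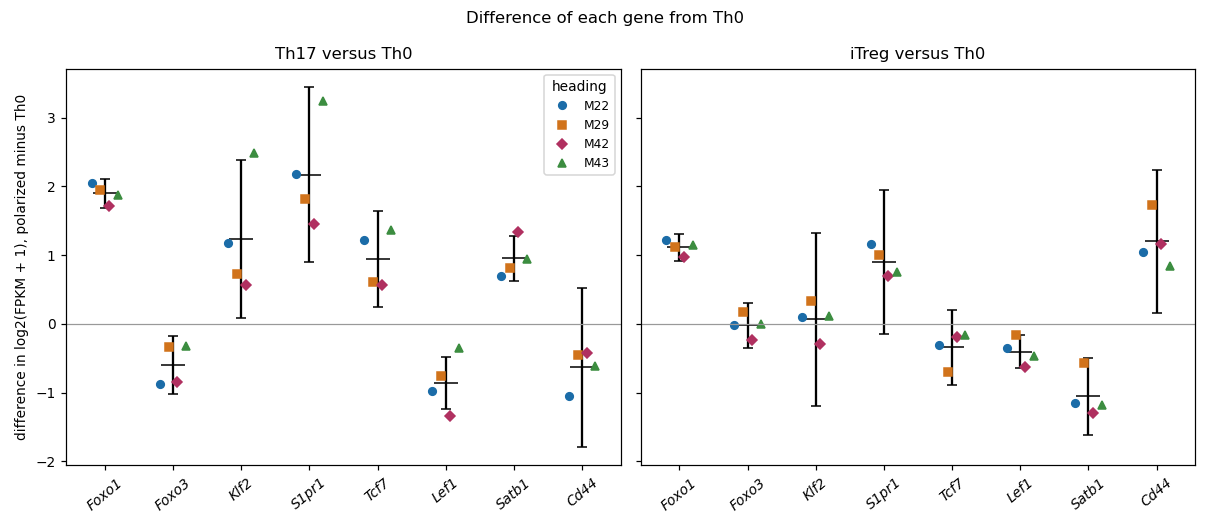
Difference in log2(FPKM + 1) from Th0, with the unpaired limma estimate and its 95% interval in black and a point for each heading beginning. Points for Foxo1 lie between 1.72 and 2.05 in Th17 and between 0.97 and 1.22 in iTreg, Satb1 and Tcf7 lie above 0 in Th17 and below 0 in iTreg, and Cd44 the reverse.

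Tcf7 was the most abundant of the 8 genes per length in every group, at the 97.3 percentile of the genes tested in Th0 (Th17 table). It was at 193, 281, 135 and 143 FPKM in Th0 and at 450, 430, 200 and 370 FPKM in Th17 libraries. Every Th17 library was above its counterpart, but M42_5 was under M29_1. Tcf7 had a log2 difference of 0.94 (SE 0.31), with a limma adjusted p of 0.066 and of 0.0047 with the block. Without M29_1 and without M42_5 the limma adjusted p was 0.029 and 0.013, and without M43_5 it was 0.13. In iTreg libraries Tcf7 was at 153, 171, 116 and 126 FPKM, against 191, 279, 133 and 141 FPKM in Th0. All 4 were below their counterparts, by a log2 difference of -0.34 (SE 0.24) with a limma adjusted p of 0.39 without and 0.038 with the block. Without M29_1 it was -0.13. Tcf7 lies on chromosome 11 from 52252371 to 52283014 on the minus strand.

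Lef1 moved the other way from Tcf7 in Th17 cells. It was at 62.5, 62.3, 70.2 and 61.5 FPKM in Th0 and fell to 31.3, 36.4, 27.2 and 48.0 FPKM in Th17 libraries, without overlap. M43_5 was the highest of the Th17 libraries. The log2 difference was -0.86 (SE 0.17, limma adjusted p 0.0075), and -1.01 without M43_5. In iTreg libraries Lef1 was at 48.2, 55.1, 44.6 and 43.4 FPKM, again below all Th0 libraries (60.7 to 69.4 FPKM). The log2 difference was -0.40 (SE 0.10, limma adjusted p 0.030). This call was lost without M22_1, M22_4, M42_1, M42_4, M43_1 or M43_4, with limma adjusted p of 0.066, 0.072, 0.080, 0.076, 0.059 and 0.078. Lef1 lies on chromosome 3, plus strand, from 131110471 to 131224356, and exons of Gm43352 cover 13.7% of its exonic bases.

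The ratio of Tcf7 to Lef1 within a library was 3.08, 4.52, 1.92 and 2.32 in Th0 and 14.4, 11.8, 7.37 and 7.72 in Th17 libraries, which did not overlap. In iTreg libraries it was 3.18, 3.10, 2.61 and 2.91, inside the range of Th0.

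Of the cofactors of TCF1 and LEF1 and of beta-catenin, 18 genes were tested in Th17 cells, with 5 raised and 3 lowered (44.4%), and 17 in iTreg cells, with 2 raised and 3 lowered (29.4%). Without M43_5 the counts in Th17 cells were 5 and 1, and with the block they were 5 and 3 in Th17 and 2 and 5 in iTreg cells. Tle3, a Groucho corepressor, fell from 111 to 127 FPKM in Th0 to 33.9 to 41.6 FPKM in Th17 libraries (log2 difference -1.57, SE 0.10, limma adjusted p 2.49e-05). It was at 28.95 to 40.7 FPKM in iTreg libraries (log2 difference -1.78, SE 0.12, limma adjusted p 4.24e-05). Tle2, another Groucho gene, was at 0.0688 to 0.164 FPKM in Th0 and at 7.24, 1.999, 2.23 and 1.78 FPKM in Th17 libraries. Ctnnbip1, an inhibitor of the contact between beta-catenin and TCF factors, rose in Th17 cells by 1.04 and Bcl9, a coactivator, fell by 0.49 on the log2 scale. The fall of Bcl9 had a limma adjusted p of 0.045 with and of 0.10 without M43_5. In iTreg cells Ctnnb1, the gene of beta-catenin, rose by 0.39 and Bcl9l by 0.78 on the log2 scale. Axin2, a target of beta-catenin signalling, fell by 1.13 on the log2 scale.

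Satb1 was the only one of the 8 genes whose libraries lay entirely above Th0 in 1 polarized group and entirely below it in the other. Of all genes tested, 13.2% lay entirely above Th0 in Th17 cells and 11% entirely below it in iTreg cells. The share of genes with both is not given here. Satb1 was at 55.1, 49.8, 37.2 and 40.1 FPKM in Th0 and at 90.4, 88.4, 95.7 and 78.3 FPKM in Th17 libraries. The log2 difference was 0.95 (SE 0.14, limma adjusted p 0.0019), the call stood with each library left out, and without M43_5 the log2 difference was 1.01. In iTreg libraries it was at 23.9, 32.8, 14.4 and 16.9 FPKM against 36.8 to 54.5 FPKM in Th0. The log2 difference was -1.05 (SE 0.25), with a limma adjusted p of 0.021 and of 9.96e-04 with the block. Without M22_1, M29_1 or M43_4 the adjusted p was 0.062, 0.0501 and 0.057, past the threshold. Satb1 lies on chromosome 17, minus strand, from 51736187 to 51833290.

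Of 14 other genes of chromatin looping, 1 rose and 1 fell in Th17 cells (14.3%) with or without M43_5, and 1 rose and 3 fell in iTreg cells (28.6%). With the block, 2 rose and 4 fell in Th17 and 1 rose and 6 fell in iTreg cells. Cux1, a homeodomain factor of the same CUT family as SATB1, rose from 4.67 to 5.56 FPKM in Th0 to 16.04 to 21.6 FPKM in Th17 and 15.9 to 18.7 FPKM in iTreg libraries. Smc1a, a cohesin subunit, fell by 0.51 and 0.68 on the log2 scale in Th17 and iTreg cells, and Pds5b, a cohesin regulator, fell in iTreg cells by 0.46.

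Cd44 was at 24.3, 10.1, 13.02 and 44.2 FPKM in Th0 and at 11.2, 7.12, 9.46 and 28.6 FPKM in Th17 libraries. Every Th17 library was below its Th0 counterpart, by 1.38 to 2.16 times, while the groups overlapped over most of their range. Its log2 difference was -0.63 (SE 0.51), with a limma adjusted p of 0.43 and of 0.0081 with the block, where the SE was 4.17 times smaller. The paper, which used a pair-wise design on counts, names Cd44 among the molecules lower in Th17 than in Th0 cells in both RNA and protein. In iTreg libraries Cd44 was at 50.9, 35.8, 30.0 and 79.4 FPKM against 24.0, 10.0, 12.9 and 43.7 FPKM. All 4 were above their counterparts, by 1.82 to 3.56 times. Cd44 had a log2 difference of 1.20 (SE 0.46), with a limma adjusted p of 0.12, of 9.81e-04 with the block and of 0.036 without M43_1. In Th17 cells the log2 difference was -1.02 without M43_5, -0.40 without M29_5 and -0.25 without M43_1, with limma adjusted p of 0.18, 0.69 and 0.78. Cd44 is on chromosome 2, minus strand, from 102811141 to 102901665.

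Of the ligands and partners of CD44, 11 genes were tested in each table, with 0 raised and 2 lowered in Th17 (18.2%) and 0 raised and 1 lowered in iTreg cells (9.09%). Without M43_5, 3 were lowered in Th17 cells, and without M29_1, 4 were called. In iTreg cells 0 were called without M22_1, M29_1, M42_4 or M43_1 and 2 without M29_4. With the block, 1 rose and 5 fell in Th17 and 3 rose and 3 fell in iTreg cells. Itga4, an integrin chain that pairs with CD44 in adhesion, fell in both, from 2.52 to 4.86 FPKM in Th0 to 0.487 to 2.27 FPKM in Th17 and 0.993 to 2.23 FPKM in iTreg libraries. Cd74, the invariant chain, fell from 11.4 to 25.1 FPKM in Th0 to 0.484 to 8.23 FPKM in Th17 libraries.

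The genes of the naive state and quiescence did not move as 1 group. Of 20 tested, 4 rose and 5 fell in Th17 cells (45%) and 1 rose and 6 fell in iTreg cells (35%), with medians of -0.16 and -0.09. Without M43_5 the counts in Th17 cells were 2 and 4. In all, 5 were called in Th17 cells without M22_5, M42_1 or M43_1, and 4 in iTreg cells without M22_1 or M22_4. With the block, 7 rose and 7 fell in Th17 and 3 rose and 8 fell in iTreg cells. Dapl1, a gene of naive T cells, fell from 17.2 to 43.6 FPKM in Th0 to 0.725 to 2.59 FPKM in Th17 libraries. In iTreg libraries Dapl1 was at 2.08, 1.59, 15.1 and 6.24 FPKM. Myb, a transcription factor of progenitors, fell from 35.2 to 81.8 FPKM in Th0 to 8.00 to 16.9 FPKM in Th17 and 13.8 to 15.3 FPKM in iTreg libraries. Igfbp4, an IGF-binding protein gene of naive T cells, rose, to 366, 404, 379 and 1377 FPKM in Th17 and 153 to 277 FPKM in iTreg libraries against 32.3 to 60.8 FPKM in Th0.

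Of 19 activation genes, 3 rose and 6 fell in Th17 cells (47.4%) and 3 rose and 1 fell in iTreg cells (21.1%), with 2 and 6 in Th17 cells without M43_5. With the block, 5 rose and 7 fell in Th17 and 7 rose and 7 fell in iTreg cells. Il2rb, the IL2 receptor beta chain, rose in both, from 64.4 to 99.5 FPKM in Th0 to 174 to 277 FPKM in Th17 libraries and to 160 to 276 FPKM in iTreg libraries. Il2ra, the alpha chain known as CD25, was at 337 to 583 FPKM in iTreg against 80.0 to 170 FPKM in Th0 libraries. In Th17 libraries it was at 218 to 425 FPKM, a rise with a limma adjusted p of 0.029, or 0.065 without M43_5. Ctla4, an inhibitory receptor, rose in Th17 cells from 26.2 to 46.8 FPKM to 104 to 148 FPKM, while Cd40lg, the CD40 ligand, fell from 42.6 to 93.0 FPKM to 5.56 to 14.1 FPKM. Gzmb, the granzyme B gene, was at 3.44 to 15.96 FPKM in Th0, at most 0.173 FPKM in Th17 and at most 0.631 FPKM in iTreg libraries.

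**Figure D4:**
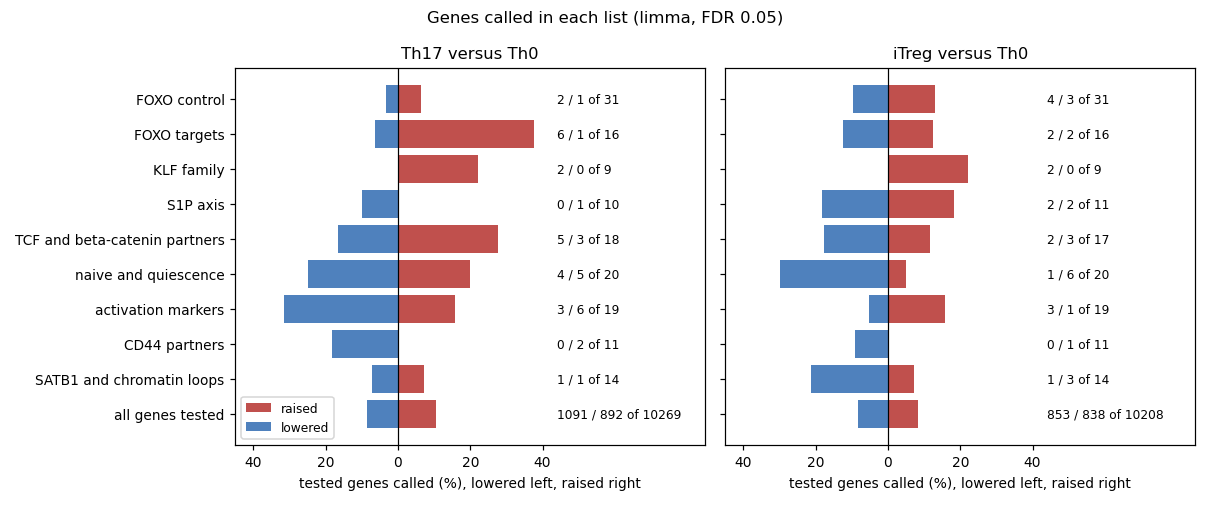
Percent of tested genes of each list that rose (right) or fell (left) at a limma FDR of 0.05, with the numbers beside each bar as raised / lowered of tested and all genes tested in the lowest row. In Th17 cells 6 of 16 FOXO targets rose and 1 fell, beside 10.6% and 8.69% of all genes.

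Klf2, S1pr1 and Tcf7 shared several of their highest and lowest libraries within a group. M29_1 was the highest Th0 library and M29_4 the highest iTreg library for all 3 genes, and M42_5 and M42_4 were the lowest Th17 and iTreg libraries for all 3. Among Th0 libraries M42_1 was the lowest for S1pr1 and Tcf7, and M43_1, at 13.6 against 13.99 FPKM, for Klf2. In Th17 libraries M43_5 was the highest for Klf2 and S1pr1 and M22_5 for Tcf7. The highest library of a group exceeded the lowest by 3.42 to 5.26 times for Klf2 and by 3.88 to 7.12 times for S1pr1, but by 1.11 to 1.17 times for Foxo1. M42 libraries were also the lowest of their group for the T cell gene Cd4, at 81.3 FPKM in Th0 (others 209 to 283), 33.8 in Th17 (others 67.1 to 87.4) and 78.2 in iTreg (others 152 to 206). The part of this difference between cultures in the values of Klf2, S1pr1 and Tcf7 was not tested. Cd44 had another order, with M43 libraries the highest in each group.

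Genes with the most similar pattern over the 12 libraries were found by Pearson's r of log2(FPKM + 1), taken as the difference from the Th0 mean of the same table, over 10079 genes, as a description. The libraries share cultures and Th0 means. For Foxo1 they were Art2a-ps, Rnf149 and Dtx4 (r = 0.99 each). For Klf2 they were Whsc1l1 and Klhl24 (r = 0.97 each) and Mnt (r = 0.95), and for S1pr1 they were Ets1 (r = 0.97), Cln8 (r = 0.96) and St8sia1 (r = 0.95). For Tcf7 they were Fam65a, Acss1 and Tjp3 (r = 0.96 each), and for Lef1 Klhdc2, Irak2 and Mndal (r = 0.94, 0.94 and 0.93). For Satb1 they were Gsr, Maml2 and Fam168a (r = 0.97, 0.96 and 0.96), for Foxo3 Aven, Ccl3 and Mob3a (r = 0.96, 0.94 and 0.94), and for Cd44 they included Cd47 and Thy1 (r = 0.97 and 0.94).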

How the data were processed

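RNA of 4 Th0, 4 Th17 and 4 iTreg cultures had been sequenced as paired ends. The authors aligned reads with TopHat 2.0.14 to mm10, counted them over exons with HTSeq-count without strand, and removed genes without more than 1 CPM in at least 4 samples. They deposited 2 tables with FPKM values for 8 libraries each, scaled separately per table, and with columns of their own edgeR comparison, which hold log fold change, mean log CPM, likelihood ratio, p-value and FDR and were not used. The annotation and the calculation of FPKM are not given in the sources used here.

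Tested genes had values above 1 FPKM in 4 or more of 8 libraries. They were tested within a table on log2(FPKM + 1), a scale that understates changes of low genes, with limma 3.58.1 (R 4.3.3), without trend, unpaired, at a Benjamini-Hochberg FDR of 0.05. No test was made between Th17 and iTreg cells. Exact two-sided permutation tests of 4 against 4 libraries have 70 arrangements and a smallest p of 0.029. Foxo1, Satb1 and Lef1 reached it in both comparisons. It is reached wherever the groups do not overlap, as held for 23.8% and 22.8% of all genes tested. The permutation p was not adjusted and adds nothing to the lack of overlap. The alternatives were pseudocount 0.1, no filter, limma with trend and robust options, an FDR of 0.01, libraries centred on their median, each library left out, and a block.

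The block was the beginning of the column heading, whose meaning neither the labels nor the methods state. The sample titles number the experiments, and each experiment has a Th0, an iTreg and a Th17 sample. There are as many experiments as heading beginnings, and the paper tested its genes with a pair-wise design. Experiment numbers are not in the headings, so which beginning belongs to which experiment is not known. Deviations from group means of libraries with the same beginning correlated across genes at 0.45 to 0.78 (Th17 and Th0) and 0.66 to 0.77 (iTreg and Th0). For different beginnings they correlated at -0.59 to 0.43 and at -0.58 to 0.25, with medians of -0.32 and -0.34. The beginnings were taken to pair the libraries in the block and in the comparisons of counterparts, while the main test left this pairing out.

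The tables hold no counts, and the counting error of a gene is unknown. Ratios of low FPKM values between libraries recur. The commonest ratio, shared by 42 to 54 genes, put the depths of the 4 Th0 libraries within 1.25 times of each other. Any scaling of the libraries is part of these depths. For the other libraries the commonest ratio was ambiguous.

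The 8 genes and the 9 lists were chosen with earlier results of these data known. Named from each list were up to 2 raised and 2 lowered genes with the largest difference among those called without overlap between groups. Sphk1 in the Th17 table was added for comparison, and a few genes that the rule names are not reported here. Coordinates are from GENCODE vM21 on GRCm38, the build called mm10.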

Additional observations from a re-analysis of the deposited data

Results flagged for a closer look

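Satb1 was above all Th0 libraries in every Th17 library (log2 difference 0.95) and below them in every iTreg library (log2 difference -1.05). Bcl6 had the same pattern, with log2 differences of 1.75 in Th17 and -0.61 in iTreg cells. The difference between the 2 contrasts was not tested for either gene, since the tables were scaled separately. Of all genes tested, 13.2% lay above all Th0 libraries in Th17 cells and 11% below them in iTreg cells. The share with both is not given here.

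In 18 of 210 groups of 4 libraries looked at, counting Th0 libraries once per table, a value stood apart from the other 3 (by Dixon's ratio of gap to range at 95%), and chance gives about 1 in 20. Of the 8 genes this held for Lef1 in M42_1, at 70.2 FPKM in the Th17 and 69.4 FPKM in the iTreg table. M42_1 was also apart for Cd69 (58.3 and 57.6 FPKM), Itga4 (2.52 and 2.49 FPKM) and Cd74 (11.4 FPKM), and M42_4 for Itga4 (0.993 FPKM). M43_5 was apart for Foxp3 (42.5 FPKM), Igfbp4 (1377 FPKM) and Sgk1 (43.4 FPKM). M22_5 was apart for Klf10 (25.6 FPKM) and Tle2 (7.24 FPKM), M22_4 for Fbxo32 (7.34 FPKM) and Sgk1 (14.5 FPKM), and M22_1 for Il17a (0.114 FPKM) and Pds5b (15.9 FPKM). M29_1 was apart for Phlpp2 (2.16 FPKM).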

How the results depend on the processing

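Pseudocount 0.1, no filter, trend with robust options and centring changed no call of the 8 genes and no direction, and centring moved the median gene by -0.036 and -0.021 (log2). At an FDR of 0.01, S1pr1 in Th17 (log2 difference 2.17) and Lef1 (-0.40) and Satb1 (-1.05) in iTreg cells were no longer called. All genes called then numbered 995 (1983 at 0.05) in Th17 and 778 (1691) in iTreg cells, and genes called in the 9 lists 27 (43) and 23 (38).

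With the replicate block, 3882 and 4170 genes and 75 and 76 list genes were called. Foxo3 (-0.60), Klf2 (1.24), Tcf7 (0.94) and Cd44 (-0.63) in Th17 and S1pr1 (0.90), Tcf7 (-0.34) and Cd44 (1.20) in iTreg cells were then called too, and none of the 8 lost its call. The block keeps the log2 differences and changes their error.

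With single libraries left out, 1364 to 2237 and 1140 to 1521 genes were called in Th17 and iTreg cells, and 31 to 48 and 26 to 36 list genes. In Th17 cells log2 differences ranged from -0.75 to -0.50 for Foxo3, 1.01 to 1.68 for Klf2, 1.81 to 2.72 for S1pr1, 0.80 to 1.20 for Tcf7 and -1.02 to -0.25 for Cd44. In iTreg cells they ranged from -0.14 to 0.044 for Foxo3 and -0.36 to 0.40 for Klf2, both turning sign, from -0.47 to -0.36 for Lef1, -1.26 to -0.88 for Satb1 and 0.91 to 1.58 for Cd44. For the other genes and comparisons the call, or its absence, stood in all 8 fits.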
